A study of Homo sapiens with 6 samples.

Results

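CD14 and 8 genes that work with it in Toll-like receptor signalling were followed in THP-1 cells given interleukin-6 (IL-6) and in their controls. The 9 genes were taken from the deposited tables by their gene names: the co-receptor CD14, the receptors TLR2 and TLR4, the TLR4 partner LY96, the adaptors MYD88, TIRAP and TICAM1, and the kinases IRAK4 and IRAK1. All 9 had a value in all 6 libraries, and they are 9 of 60325 gene rows, of which 17388 had a value in every library.

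THP-1 is a human monocytic leukaemia cell line that grows in suspension and is widely used as a model of monocytes, so each value here describes a leukaemia line and not blood monocytes. Cells received recombinant human IL-6, and total RNA was taken after 6, 24 or 48 h, with control cells, labelled only ctrl, at the same times. Each of the 6 conditions is 1 library, so no single condition has a replicate. The spread used below starts from that between the 3 time-matched pairs of libraries. The limma fits also draw each gene's spread towards that of other genes. The sources used here do not give the dose of IL-6, the control's vehicle or any differentiation of the cells before treatment.

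CD14 is a surface protein with no signalling tail of its own. It takes lipopolysaccharide from a carrier in serum and hands it to a complex of TLR4 and MD-2, the protein that LY96 encodes, and it also passes bacterial lipoproteins to TLR2. Ligand-bound TLR2 and TLR4 recruit TIRAP and MYD88, which gather the kinases IRAK4 and IRAK1 and lead to NF-kB and inflammatory genes. TLR4 taken into endosomes uses a separate route through TICAM1 (TRIF) towards interferon genes. IL-6 itself acts through a receptor that activates STAT3, a factor that binds sites of the form TTCNNNGAA.

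The start-site regions of the genes were read for that form, because STAT3 is the factor through which IL-6 is known to act. RefSeq windows on GRCh38.p14 run from 250 bases before to 50 bases after each annotated start, 300 bases in all, and 7 of the 9 genes had one. LY96 and TIRAP had no entry. For both genes with a match, 30 bases are printed 5′ to 3′ on the gene's own strand, and the capitals mark the motif.
CD14 (chr5:140633279-140633308, minus strand): attgcaatatTTCCAGGAAaggaagggggc
MYD88 (chr3:38138584-38138613, plus strand): agggcggcgcTTCTCGGAAagcgaaagccg

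The form reads the same on both strands, and both were searched. TTCNNNGAA was found in 2 of the 7 windows, those of CD14 and MYD88, and 7.66% of the 35116 RefSeq windows hold it. The motif begins 123 bases before the RefSeq start in CD14 and 67 bases before it in MYD88. In GENCODE release 29 the CD14 match lies within the span of all 5 annotated CD14 transcripts, touches an exon of 3 of them, in the untranslated part, and touches no coding sequence. The MYD88 match lies in the untranslated part of an exon of 4 of the 13 MYD88 transcripts. These are matches of letters only, and binding was not measured. An interferon-response and an NF-kB motif were also searched in these windows and are not reported here.

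The deposited value of a gene is a log2 signal centred so that the gene's 6 values average 0. It therefore shows how the libraries of 1 gene differ and says nothing about which gene is more abundant. Relative levels, in an arbitrary unit, were recovered for 8 of the 9 genes from the steps between their values. IRAK1 gave none. The low end of the recovered levels was higher in short genes, with a first percentile of 0.172 at lengths of 200 to 500 bases and 0.0435 at 1000 to 2000 bases, as a measure divided by length would be, but the sources used here do not state the measure. Levels are therefore compared between genes only with that limit, and between libraries of 1 gene without it. Between 22000 and 23108 genes had a value per library, the sequencing depth is unknown, and library medians of the log2 value over tested genes ran from -0.051 to 0.091.

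**Figure D1:**
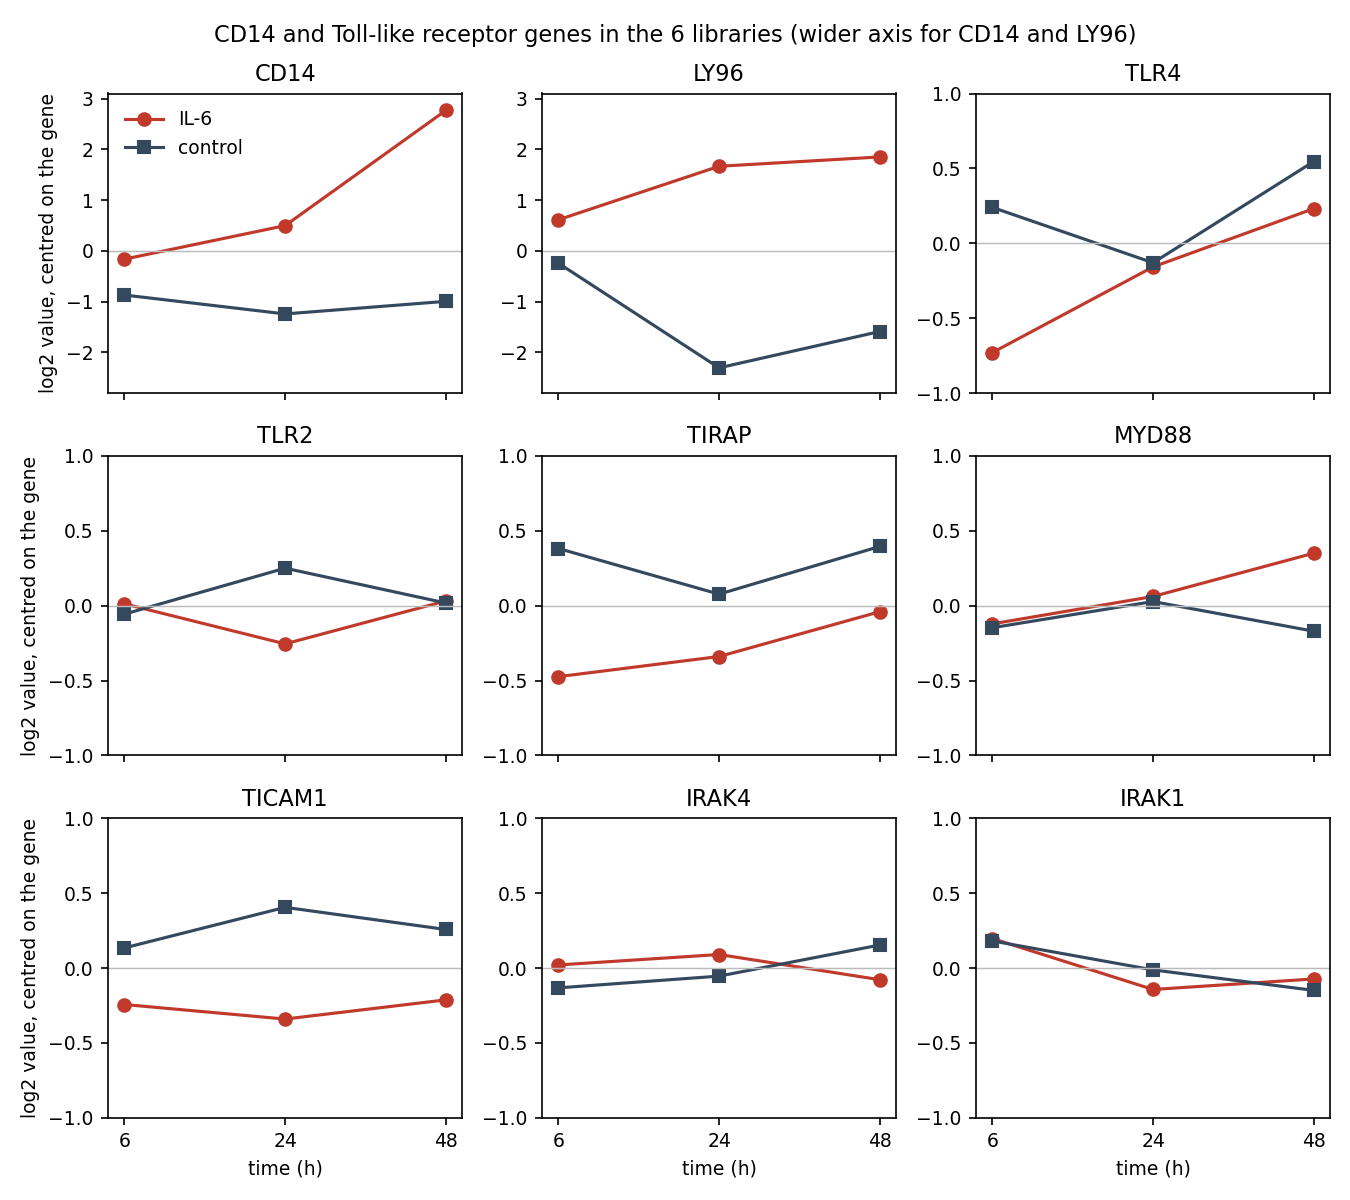
Centred log2 value of each of the 9 genes (y axis) at 6, 24 and 48 h (x axis), with 1 point per library, IL-6 in red circles and control in dark squares. CD14 and LY96 have a wider axis, and in them every IL-6 point lies above every control point. In TIRAP and TICAM1 every IL-6 point lies below every control point.

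CD14, the co-receptor (gene ENSG00000170458.14, chr5:140631728-140633701, minus strand, GRCh38), was the gene of the set with the widest gap at 48 h. Its centred log2 value was -0.16, 0.50 and 2.77 in IL-6 cells at 6, 24 and 48 h, against -0.87, -1.24 and -0.99 in control cells. On the recovered scale its level was 12.8, 20.2 and 97.1 in IL-6 cells, against 7.81, 6.04 and 7.17 in control cells. All 3 IL-6 libraries lay above all 3 control libraries. The IL-6 libraries were spread over 1.54 log2 units (SD, n = 3) and the control libraries over 0.19 (SD, n = 3). In libraries made from many cells, more cells that carry a transcript and more of it per cell cannot be told apart.

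The IL-6 over control ratio of CD14 was 1.63-fold at 6 h, 3.34-fold at 24 h and 13.5-fold at 48 h. Averaged over the 3 time-matched pairs, the log2 difference was 2.07 ± 0.83 (limma SE), with an unadjusted p of 0.114 and an adjusted p of 0.680 by limma with Benjamini-Hochberg adjustment over 13558 genes. That average did not pass the threshold of 0.05. The 3 log2 ratios had an SD of 1.55 (n = 3 pairs). Without the 48 h pair the average was 1.22 ± 0.25, with an adjusted p of 0.143 by limma.

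The log2 difference between IL-6 and control cells grew by 1.53 ± 0.21 per time point in a limma fit with a term for agent by time step, with an adjusted p of 0.00109. Over all tested genes 0.266% passed that test, 0.125% with a growing difference, and CD14 was the 1 member of 9 that did. The widening of the CD14 ratio over time was known when the term was chosen, so its p is a description. The fit has 1 residual degree of freedom, the same fit called unchanged genes too often on simulated data, and without a variance trend the adjusted p was 0.696.

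LY96 encodes MD-2, the part of the TLR4 complex that holds the lipid of lipopolysaccharide (gene ENSG00000154589.7, chr8:73991392-74029079, plus strand). Its centred log2 value was 0.61, 1.67 and 1.85 in IL-6 cells at 6, 24 and 48 h, against -0.24, -2.30 and -1.59 in control cells. The recovered level was 2.70, 5.61 and 6.37 in IL-6 cells, against 1.49, 0.358 and 0.588 in control cells. The groups did not overlap: the highest control library, at 6 h, lay below the lowest IL-6 library, also at 6 h.

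The LY96 ratio was 1.81-fold at 6 h, 15.7-fold at 24 h and 10.8-fold at 48 h. These large folds stand on low control levels, and with 1 unit added to each level the 24 h log2 ratio was 2.28 in place of 3.97. The average log2 difference was 2.75 ± 0.59 (limma SE), with an unadjusted p of 0.00231 and an adjusted p of 0.236 by limma, and it was positive in 3 of 3 pairs. Only 8 of the 13558 tested genes, LY96 included, had an estimate this high. Without the 6 h pair the LY96 estimate was 3.70 ± 0.43 with an adjusted p of 1.35e-05 by limma. That fit has 4 libraries and 1 residual degree of freedom, it called 123 genes against 33, and it was the 1 setting of 10 in which LY96 passed. The per-time-point change of its difference was 1.29 ± 0.50, with an adjusted p of 0.734 by limma.

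Some monocyte markers were higher in the same libraries as CD14 and LY96, and others were not. Of 14 such genes 11 were tested, and 8 of the 11 had an estimate above 0. The list was chosen with earlier results of these data known, so its counts are a description and no measure of enrichment. With IL-6 3 of the 11 rose by limma and none fell, beside 0.243% of all tested genes that passed in either direction: S100A8 by 1.78 ± 0.18 log2 units (adjusted p = 0.0136), VCAN by 2.03 ± 0.26 (adjusted p = 0.0230) and FCGR1A by 0.65 ± 0.10 (adjusted p = 0.0400). S100A8 is a calcium-binding alarmin of myeloid cells that can itself act on TLR4, VCAN is a matrix proteoglycan of classical monocytes, and FCGR1A is a high-affinity IgG receptor that shares reads with near-identical copies. The estimate for S100A9, with which S100A8 forms a dimer, was 1.80 ± 0.29, with an adjusted p of 0.257 by limma. Without a variance trend in the fit, no tested gene passed for IL-6.

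The summed level of the 5 monocyte markers with a recovered level was 42.4, 52.3 and 66.0 in IL-6 cells at 6, 24 and 48 h, against 28.7, 31.7 and 33.3 in control cells, and the median estimate of the 11 was 0.39. That sum leaves out LYZ, CD68, CSF1R, S100A8, S100A9, FCGR1A and FCGR2A, whose levels were not recovered. The estimate was -0.27 ± 0.12 for LYZ, the lysozyme of myeloid cells, -0.24 ± 0.11 for the lysosomal protein CD68, -0.22 ± 0.14 for the growth factor receptor CSF1R and 0.16 ± 0.44 for the integrin ITGAM, and none of these passed. FCN1 and CD163 were not listed in all 6 libraries. The part of these markers in the CD14 and LY96 differences was not tested.

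TLR4, the signalling receptor for lipopolysaccharide (gene ENSG00000136869.16, chr9:117704175-117724735, plus strand), had no IL-6 library above its control as deposited. Its centred log2 value was -0.73, -0.16 and 0.23 in IL-6 cells at 6, 24 and 48 h, against 0.24, -0.13 and 0.55 in control cells. The recovered level was 3.14, 4.66 and 6.10 in IL-6 cells, against 6.14, 4.75 and 7.59 in control cells. The IL-6 library was the lower of the pair at all 3 times, with log2 differences of -0.97, -0.028 and -0.31 in time order, and the groups overlapped. With library medians set equal the 24 h difference was 0.022, so its direction depends on the scaling. The average difference was -0.44 ± 0.26, with an adjusted p of 0.690 by limma. TLR4 lies inside a second protein-coding gene model on the same strand, ENSG00000285082, which shares 20561 bases with it and had a value in 5 libraries, so reads could be split between both.

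TLR2, the receptor for bacterial lipoproteins (gene ENSG00000137462.9, chr4:153684070-153706260, plus strand), had recovered levels of 40.1, 33.3 and 40.7 in IL-6 cells at 6, 24 and 48 h, against 38.3, 47.3 and 40.3 in control cells. The groups overlapped, and the 24 h pair differed most, at 0.704-fold. The average log2 difference was -0.14 ± 0.15, with an adjusted p of 0.847 by limma, and it was 0.041 without the 24 h pair.

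**Figure D2:**
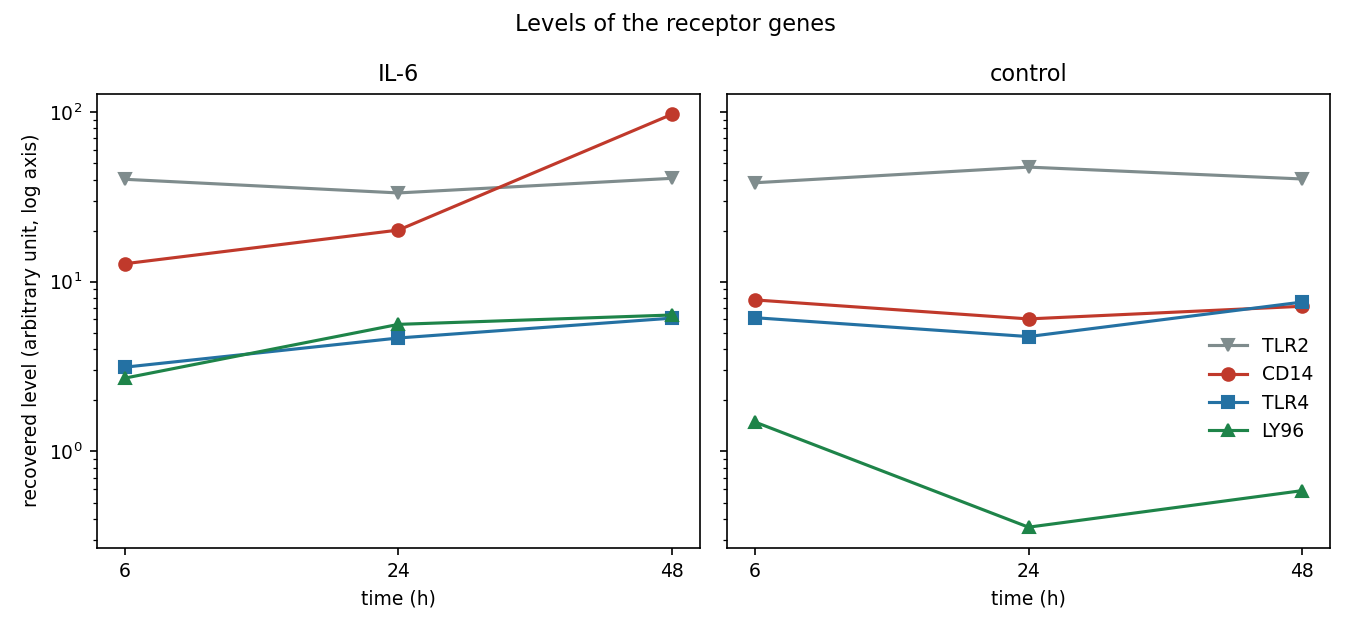
Recovered level in an arbitrary unit (log y axis) of TLR2, CD14, TLR4 and LY96 at 6, 24 and 48 h (x axis), 1 point per library, IL-6 libraries on the left and control libraries on the right. CD14 reaches 97.1 in the IL-6 library at 48 h, above TLR2 at 40.7, and LY96 stands near TLR4 in the IL-6 panel and below it in the control panel.

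Set against TLR4 in the same library, both partners stood higher with IL-6, and such a quotient can be compared between libraries whatever the length of the genes. CD14 per TLR4 was 4.07, 4.32 and 15.9 in IL-6 cells at 6, 24 and 48 h, against 1.27, 1.27 and 0.944 in control cells. LY96 per TLR4 was 0.862, 1.20 and 1.04 in IL-6 cells, against 0.243, 0.0754 and 0.0775 in control cells. In both quotients every IL-6 library was above every control library, as was already so for CD14 and LY96 themselves. The quotients also carry the difference in TLR4, whose level at 6 h was 3.14 with IL-6 against 6.14 in control cells. TLR2 per TLR4 overlapped between the groups, at 12.8, 7.15 and 6.66 in IL-6 cells and 6.23, 9.96 and 5.31 in control cells. No p is given for these quotients, because they were formed with the members' values known.

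If the levels are per length, their order in control cells was TLR2, MYD88, TIRAP, IRAK4, then CD14 and TLR4, then TICAM1 and LY96, with CD14 and TLR4 in either order. CD14 took place 5 of 8 in the control libraries at 6 and 24 h and place 6 at 48 h. With IL-6 it took place 4 of 8 at 6 h, place 3 at 24 h and place 1 at 48 h. LY96 was the lowest of the 8 in all 3 control libraries and in the IL-6 library at 6 h, and above TLR4 and TICAM1 in the IL-6 libraries at 24 and 48 h. The order of TLR2 and MYD88 and of TIRAP and IRAK4 was not the same in all 6 libraries, and these neighbours cannot be ranked. CD14 and TLR4 cannot be ranked in control cells, and CD14 was above TLR4 in all 3 IL-6 libraries.

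TIRAP is the bridging adaptor that brings MYD88 to TLR2 and TLR4 at the membrane (gene ENSG00000150455.14, chr11:126283065-126298845, plus strand). Its recovered level was 10.2, 11.2 and 13.8 in IL-6 cells at 6, 24 and 48 h, against 18.5, 15.0 and 18.7 in control cells. Every IL-6 library was below every control library, with ratios of 0.553-fold at 6 h, 0.749-fold at 24 h and 0.739-fold at 48 h. The average log2 difference was -0.57 ± 0.17, negative in 3 of 3 pairs, with an unadjusted p of 0.00799 and an adjusted p of 0.345 by limma. The same or a lower estimate was found for 669 of the 13558 genes.

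An antisense non-coding gene, ENSG00000255062, shares 4550 bases with TIRAP, and the library kit does not mark the strand, so reads from both cannot be told apart. Its own centred log2 values were -0.13, 0.26 and 0.17 in IL-6 cells, against -0.67, 0.35 and 0.0065 in control cells, which overlap. Its part in the TIRAP difference was not tested.

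MYD88, the adaptor shared by most Toll-like receptors (gene ENSG00000172936.16, chr3:38138478-38143022, plus strand), had recovered levels of 38.3, 43.4 and 53.1 in IL-6 cells at 6, 24 and 48 h, against 37.6, 42.4 and 37.0 in control cells. The libraries of a pair lay close at 6 and 24 h, with log2 differences of 0.026 and 0.034, and the 48 h pair differed by 0.52. The average was 0.19 ± 0.14, with an adjusted p of 0.762 by limma, and 0.030 without the 48 h pair.

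TICAM1, the adaptor of the endosomal TLR4 route and of TLR3 (gene ENSG00000127666.11, chr19:4815932-4831712, minus strand), had recovered levels of 2.78, 2.60 and 2.84 in IL-6 cells at 6, 24 and 48 h, against 3.62, 4.36 and 3.94 in control cells. Every IL-6 library was below every control library, and the 3 log2 ratios of -0.38, -0.75 and -0.47 had an SD of 0.19. The average was -0.53 ± 0.29, with an unadjusted p of 0.0952 and an adjusted p of 0.645 by limma.

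IRAK4, the first kinase of the complex built on MYD88 (gene ENSG00000198001.15, chr12:43758944-43789543, plus strand), had recovered levels of 14.5, 15.2 and 13.5 in IL-6 cells at 6, 24 and 48 h, against 13.0, 13.7 and 15.9 in control cells. The IL-6 library was the higher of the pair at 6 and 24 h and the lower at 48 h, and the average difference was 0.022 ± 0.17, with an adjusted p of 0.983 by limma.

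IRAK1, the kinase that IRAK4 acts on (gene ENSG00000184216.14, chrX:154010506-154019902, minus strand), had centred log2 values of 0.20, -0.14 and -0.073 in IL-6 cells, against 0.18, -0.012 and -0.15 in control cells. The pairs differed by at most 0.13 log2 units, and the average was -0.013 ± 0.11, with an adjusted p of 0.984 by limma. Of the 9 genes, IRAK1 had the closest agreement between its 3 ratios, with an SD of 0.11.

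**Figure D3:**
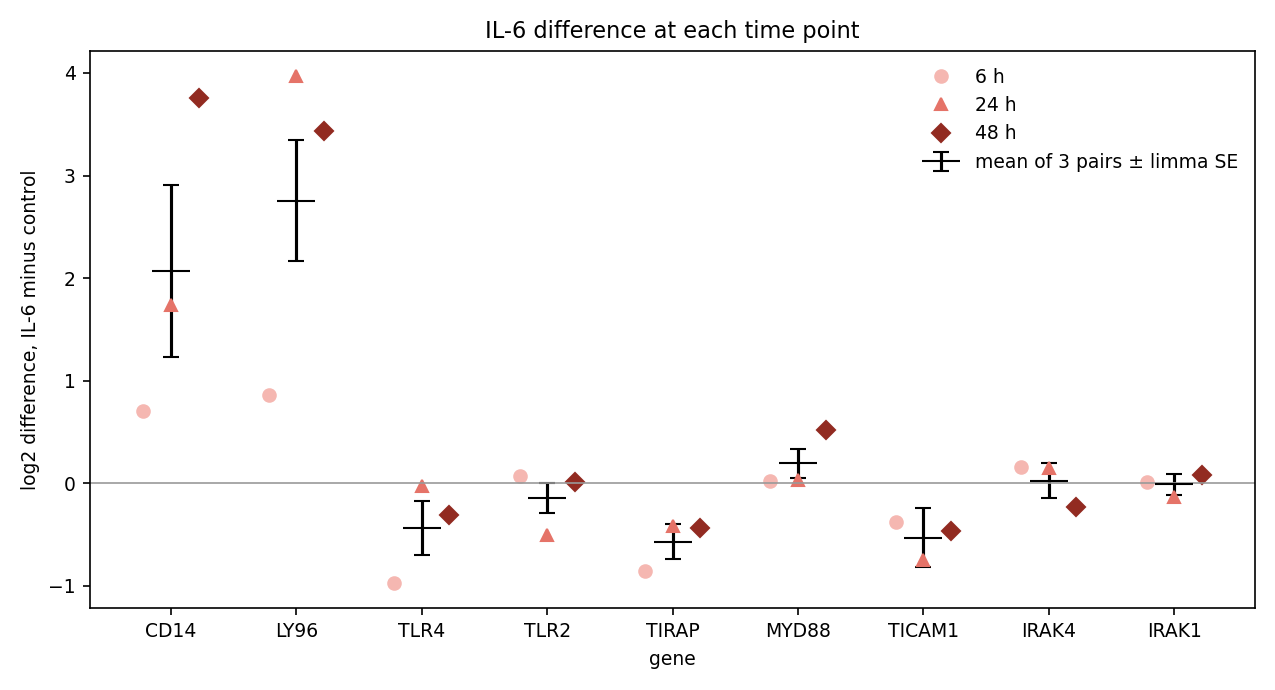
Log2 difference, IL-6 minus control (y axis), of each of the 9 genes (x axis) in the 6 h, 24 h and 48 h pairs (points), with the mean of the 3 pairs and its limma SE (bar). CD14 and LY96 lie above 0 in all 3 pairs, and TIRAP and TICAM1 lie below 0 in all 3 pairs. TLR4 also does so as deposited, but its 24 h difference is 0.022 with library medians set equal. MYD88 lies above 0 in all 3 pairs as deposited, but its 6 h difference is -0.0023 with library medians set equal.

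Over the whole set, none of the 9 genes passed an adjusted p of 0.05 in limma for the IL-6 difference averaged over time, beside 0.243% of all tested genes. At an unadjusted p under 0.05 there were 2 of 9, LY96 and TIRAP, beside 8.87% of all tested genes. The estimate was above 0 in 4 of the 9 genes, and its median was -0.013, beside -0.034 over all tested genes. IL-6 and control libraries did not overlap in 4 of the 9, beside 9.24% of all tested genes. CD14 and LY96 were higher with IL-6, which 3.53% of all genes were, and TIRAP and TICAM1 were lower, which 5.72% were. Because the 9 genes were chosen with earlier results of these data known, their counts beside these shares are a description.

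Ratios of at least 2-fold between the libraries of 1 pair were found in none of the 9 genes at 6 h. Beside this stand 6.26% of genes whose level averaged 1 or more in that pair or could not be recovered. At 24 h there were 2 of 9, CD14 and LY96, both higher with IL-6, beside 2.98% of such genes at least 2-fold higher with IL-6. At 48 h the same genes passed, beside 3.8% of such genes at least 2-fold higher with IL-6. TLR4 at 6 h stood just short of it, at 0.511-fold. Each of these ratios compares 2 libraries and has no replicate check, and the choice of the 9 genes was made with earlier results known.

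Markers of promyelocytes, an earlier stage of the lineage, were measured in 5 of 5 genes, and their median estimate was -0.29. None of them passed for IL-6 in limma, beside 0.243% of all tested genes. Of the markers of other cells, CD3D, CD3E, CD3G, CD2 and GNLY of T and NK cells were not listed in all 6 libraries, nor were HBA1, HBB, PPBP and PF4 of red cells and platelets, MS4A1 of B cells, or EPCAM, CDH1, COL1A1 and COL1A2 of epithelium and fibroblasts. NKG7, CD79B and KRT8 were tested, and none passed for IL-6 by limma. Their estimates were 0.65 ± 0.15, -0.27 ± 0.32 and -0.63 ± 0.43 in that order.

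Other genes of the pathway were described through 6 lists of 85 genes in all, of which 60 were tested. None of the 60 passed an adjusted p of 0.05 in limma for IL-6 in either direction, and none passed for a change of the IL-6 difference over time. Over all tested genes only 0.243% and 0.266% passed these tests, so none of 60 lies near those shares. The genes named from each list are those with the largest estimates.

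Of 8 other Toll-like receptors 1 could be tested: TLR1, which pairs with TLR2, had an estimate of 0.25 ± 0.32. TLR3, TLR9 and TLR10 were not listed in all 6 libraries. Among genes of ligand delivery, co-receptors and receptor chaperones, 7 of 9 were tested, with a median of -0.14. The largest estimate there was that of CD180, a TLR4-like surface receptor without a signalling domain, at 0.76 ± 0.21, and LY86, which encodes its partner MD-1 and resembles LY96, was at -0.22 ± 0.11. The chaperones CNPY4 and CNPY3 were at -0.36 ± 0.22 and -0.22 ± 0.11. LBP, the serum carrier of lipopolysaccharide, was not listed in all 6 libraries.

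For adaptors, kinases and ubiquitin ligases that act after the receptor, 18 of 21 were tested, with a median of -0.041. RIPK1, a kinase used by TICAM1, had an estimate of -0.77 ± 0.33, the ubiquitin ligase PELI2 of -0.70 ± 0.33, the ubiquitin ligase TRAF6 of -0.41 ± 0.22 and the kinase TBK1 of 0.27 ± 0.16. For inhibitors of the pathway 13 of 14 were tested, with a median of 0.049. ATF3, a repressor induced by Toll-like receptor ligands, was at 1.35 ± 0.43, SOCS1 at 0.42 ± 0.47, the NF-kB inhibitor TNFAIP3 at -0.34 ± 0.30 and the inhibitory receptor CD300A at 0.34 ± 0.18. None of these estimates passed the adjusted threshold, and the mean recovered level was only 1.60 for ATF3 and 1.28 for SOCS1.

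All 10 transcription factors at the end of the pathway were tested, with a median of -0.016. IRF7 had an estimate of 0.58 ± 0.20, NFKB2 of 0.57 ± 0.27, IRF5 of -0.45 ± 0.12 and JUN of 0.27 ± 0.19. Of 23 genes that the pathway induces in monocytes 11 were tested, with a median of 0.059. The adhesion molecule ICAM1 was at 2.99 ± 1.42, from log2 ratios of 5.75, 0.11 and 3.12 at 6, 24 and 48 h, the chemokine CCL3 at 1.41 ± 0.37, the cytokine IL1B at 0.96 ± 0.46 and tissue factor F3 at -0.55 ± 0.26. The ICAM1 ratio at 6 h stands on a very low control library, with a centred log2 value of -4.84. Mean recovered levels were low, at 2.78 for ICAM1, 2.29 for CCL3, 1.27 for IL1B and 4.36 for F3. None of these estimates passed. IL6, IL1A, IL10, IL12B, CXCL10 and IFNB1 were among the 10 not listed in all 6 libraries.

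Time in culture was tested with both agents together, each time point holding 1 IL-6 and 1 control library. None of the 9 genes passed at 24 h against 6 h, beside 1.71% of all tested genes, or at 48 h against 6 h, beside 3.74%, by limma at an adjusted p of 0.05. At an unadjusted p under 0.05 there were 0 of 9 at 24 h, beside 17.4% of all genes, and 1 of 9 at 48 h, beside 21.4%. That gene was IRAK1, with a difference of -0.30 ± 0.13 at 48 h and an adjusted p of 0.220 by limma. TLR4 had a difference of 0.63 ± 0.32 at 48 h, with an adjusted p of 0.290, and CD14 one of 1.40 ± 1.02, with an adjusted p of 0.562 by limma. The CD14 value averages unlike courses and describes neither. From 6 to 48 h its level went from 7.81 to 7.17 in control cells and from 12.8 to 97.1 in IL-6 cells.

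In the 60 tested pathway genes 2 rose and 1 fell at 24 h against 6 h, and 6 rose and 1 fell at 48 h against 6 h. Over all 13558 tested genes 1.71% passed at 24 h, with 195 higher and 37 lower. At 48 h 3.74% passed, with 330 higher and 177 lower. Whether the lists differ from these shares was not tested. CD300A rose at both times, by 2.44 and 1.82 log2 units, with adjusted p of 0.00179 and 0.00393 by limma. IRF7, a master factor of interferon genes, rose by 1.32 and 1.59, with adjusted p of 0.0298 and 0.0101 by limma. At 48 h the cytokine TNF rose by 2.33, CCL3 by 2.61, the NF-kB inhibitor NFKBIA by 0.54 and CD180 by 1.22, and the chaperone HSP90B1 fell by 0.78, with adjusted p of 0.00128 to 0.0471 by limma. LGALS3, a galectin listed among the inhibitors, fell by 0.99 at 24 h, with an adjusted p of 0.00893 by limma.

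The genes whose 6 centred values lay closest to those of CD14 were sought among 9573 tested genes whose level averaged 5 or more or could not be recovered. Closeness was the root mean square difference over the 6 libraries, in log2 units. SERPINA1, a protease inhibitor, was nearest at 0.497, then CST7, a cysteine protease inhibitor, at 0.504, CLU, an extracellular chaperone, at 0.579, SERPINE2, another protease inhibitor, at 0.637, and the kinase PIM1 at 0.645. Their log2 ratios at 48 h were 2.98, 2.10, 3.64, 1.93 and 3.09, all below the 3.76 of CD14. At 6 h the ratio of SERPINE2 was -0.022 and that of PIM1 was 2.15, on either side of the 0.71 of CD14.

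**Figure D4:**
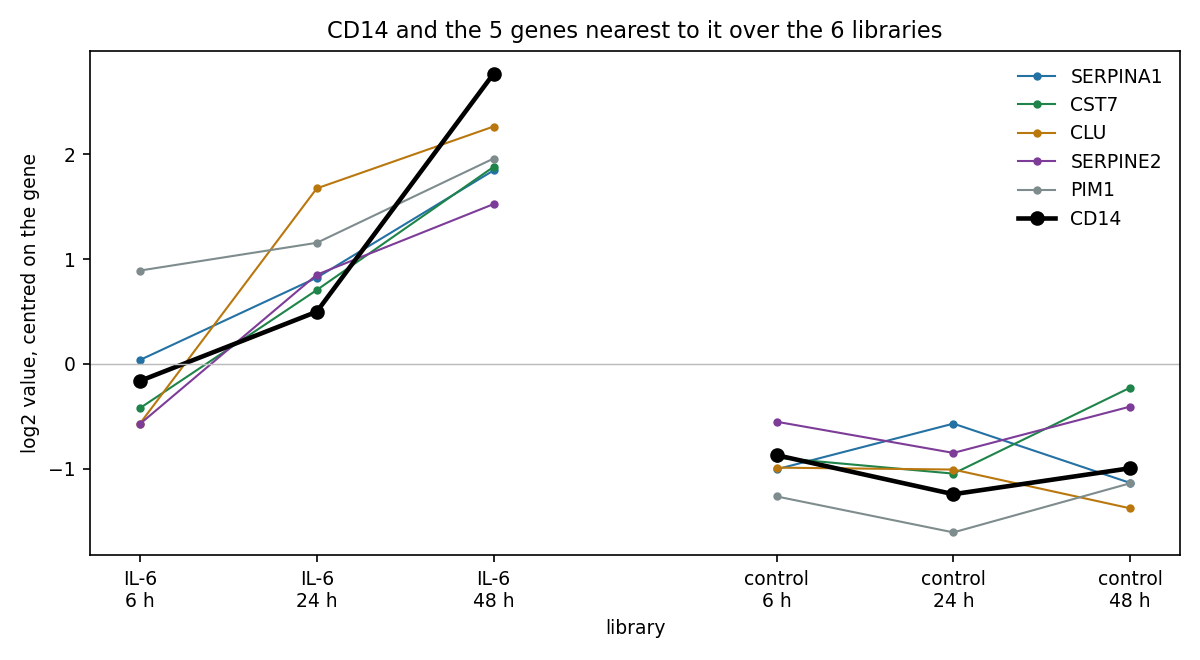
Centred log2 value (y axis) of CD14 (thick black) and of its 5 nearest genes in each of the 6 libraries (x axis), IL-6 libraries on the left and control libraries on the right. All 6 genes are highest in the IL-6 library at 48 h, where CD14 stands at 2.77, and PIM1 stands apart from the others in the IL-6 library at 6 h.

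For LY96 the nearest genes were PIM1 at 0.589, S100A12, another calcium-binding alarmin of myeloid cells, at 0.639, and PLIN4, a lipid droplet protein, at 0.643. PIM1 was thus among the nearest genes of both CD14 and LY96. For TLR4 they were the zinc finger gene ZNF211 at 0.125, SIRPB1, a myeloid surface receptor, at 0.158 and KLHL20 at 0.159. The smaller distances of TLR4 come with its smaller span of 1.27 log2 units over the libraries, against 4.01 for CD14 and 4.15 for LY96. The other 6 genes span less than 1 log2 unit, and no nearest genes were sought for them.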

How the data were processed

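RNA-seq libraries of THP-1 cells were prepared with SMART-seq v4 and Nextera XT and sequenced on a NovaSeq instrument, per the labels' protocols. The authors deposited log2 values, centred on each gene. Their build was GRCh38 (hg38), per the submitters' processing notes; the aligner, counter and normalization were not stated in the sources used here. After 1 offset per library the values are ratios of whole numbers, which gave levels in steps of 0.001 arbitrary units for 14659 of 17388 genes (84.31%), with fewer than 0.01 accidental matches expected per gene. These levels are not read counts, so depth and counting error are unknown.

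limma 3.58.1 in R 4.3.3 was fitted to the log2 values of all 6 libraries with time point and agent as terms, robust empirical Bayes with a trend on level, 2 residual degrees of freedom and Benjamini-Hochberg adjustment. It ran over 13558 genes listed in all 6 libraries whose level averaged 1 or more or could not be recovered. Fits were tested on simulated data. Nothing in the labels says that the libraries come from separate cultures, so p-values measure the spread between these libraries only. Named by rule are all 9 members, list genes that passed for IL-6, up to 4 of the largest IL-6 estimates per list, and the nearest patterns. List genes named for culture time, and other single list genes, were named after their values were seen. The members, lists and the motif were chosen with earlier results of these data known. Promoter windows are RefSeq's on GRCh38.p14. Alternatives covered library scaling, level filter, pseudocount, variance model, the time term, fold threshold and each pair left out. Some marker genes are not reported here.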

Additional observations from a re-analysis of the deposited data

Results flagged for a closer look

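The IL-6 difference of CD14 grew by 1.53 log2 units per time point in the limma fit with a term for agent by time step. This is a description: the widening was known when the term was chosen, the fit has 1 residual degree of freedom and called unchanged genes too often on simulated data, and without a variance trend the adjusted p was 0.696. In TLR2, IRAK1 and IRAK4 the IL-6 library was above its control at some times and below it at others. The highest and the lowest log2 difference were 0.57 apart in TLR2, 0.21 apart in IRAK1 and 0.38 apart in IRAK4. These differences between time points compare single libraries and were not tested by themselves.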

How the results depend on the processing

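For the IL-6 difference averaged over time, 33 genes passed, against 14 with no level filter, 12 with non-robust empirical Bayes, 4 without the time term, 0 without a variance trend (1085 at an unadjusted p under 0.05) and 21 to 123 with a pair left out, 123 being without the 6 h pair. At 24 h against 6 h, 232 passed, against 142 with no level filter, 375 with a level of at least 5, 101 non-robust, 0 without a variance trend (1912 unadjusted) and 478 without the 48 h pair. At 48 h against 6 h, 507 passed, against 272 with no level filter, 132 non-robust, 0 without a variance trend (2247 unadjusted) and 372 without the 24 h pair. With library medians set equal the split of higher and lower genes was 128 and 57 in place of 195 and 37 at 24 h, and 261 and 258 in place of 330 and 177 at 48 h. For the change of the IL-6 difference over time, 36 passed, against 21 with equal medians, 19 with no level filter, 61 on log2(level + 1) and 0 without a variance trend (816 unadjusted). Genes at least 2-fold apart with a level of at least 10 numbered 101 at 6 h, 160 at 24 h and 156 at 48 h, against 360, 806 and 521 at 1.5-fold and 828, 1024 and 987 with a level of at least 1. Every level filter named here also kept the genes whose level could not be recovered. Among the 9 genes, the direction of the averaged IL-6 estimate turned for IRAK1 with equal medians (0.024) and, with a pair left out, for TLR2 (-0.25 to 0.041), IRAK1 (-0.057 to 0.046) and IRAK4 (-0.044 to 0.15). Within single pairs it turned with equal medians for TLR4 at 24 h (0.022), MYD88 at 6 h (-0.0023) and IRAK1 at 6 h (-0.012). Over culture time it turned with equal medians for TLR2 (-0.081), IRAK4 (-0.026) and TICAM1 (-0.014) at 24 h and TLR2 (-0.017) at 48 h, and for LY96 on log2(level + 1) at 48 h (0.17). The cause was not tested. The averaged IL-6 estimate ran from 1.22 to 2.75 for CD14, with adjusted p of 0.143 to 0.998, and from 1.69 to 3.70 for LY96; CD14 passed in none of its 11 settings, and LY96 in 1 of 10, without the 6 h pair. A level of at least 5 leaves out LY96 and TICAM1. Depth is unknown, so no counting limit can be given for low genes such as LY96 in control cells.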
